A study of Mus musculus with 10 samples.

Results

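Zfp57 and 39 imprinted genes were followed in the dentate gyrus of the mouse between 4 and 12 weeks of age. The genes were chosen by symbol, with earlier results of these data known, among them the fall of Zfp57. A gene counted as measured where the platform annotation gave a probe set to that gene alone. This held for 33 of the 40 genes, each with 1 such probe set, out of 19752 genes measured in all. Snrpn, Gnas, Ube3a, Rian and Mirg share their probe set with other genes, and H19 and Kcnq1ot1 were not analysed here. The arrays were whole-transcript Affymetrix expression arrays of total RNA from both dentate gyri, with 2 arrays at each of 5 ages, 4, 6, 8, 10 and 12 weeks. The mice had no treatment, and all ages shared the strain (C56BL/6J in the labels' spelling), the labelled sex (female) and the dissection. Nothing in the labels tells separate animals from pools or repeat arrays of 1 RNA, and the p-values cover only the variation among these 10 arrays. Values are log2 expression.

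Imprinted genes are expressed mainly or only from the copy inherited from one parent. The choice is written in the germ line as DNA methylation at control regions, where it must survive the erasure of methylation that follows fertilisation. ZFP57, a zinc finger protein with a KRAB domain, binds the methylated letters TGCCGC at these regions and recruits TRIM28, and the complex keeps the methylation in place in the early embryo. Many imprinted genes act in growth, and in the brain several serve neuronal development, metabolism and behaviour. Of the 39 imprinted genes, 20 are known as paternally expressed in the mouse and 11 as maternally expressed. For the other 8 the expressed copy depends on the tissue or the transcript, as for Grb10, which is expressed from the maternal copy in most tissues and from the paternal copy in neurons. The arrays measured RNA from both copies together, so imprinting itself was not measured.

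The letters that ZFP57 reads were searched for on both strands of RefSeq promoter windows (build GRCm38.p6, 250 bases before to 50 after each start), because several imprinted genes start within a methylated control region. TGCCGC, or GCGGCA where the site lies on the other strand, was found in at least 1 window of 11 of the 33 imprinted genes with a window (33.3%), against 13.1% of all 27025 genes with a window. Some genes have several windows. Counted by window, 12 of the 53 windows of imprinted genes (22.6%) held it, against 11.6% of all 32851 windows. The windows were not matched for CpG content, and a match is no evidence of binding. Nnat, Mest, Plagl1 and Nap1l5, whose promoters are known to be methylated on the maternal copy, were among the 11. Peg3, Usp29, Kcnq1ot1 and Airn, which also start at or beside regions known to be methylated on the maternal copy, had no match in their windows. The window of Nnat, the gene with the lowest p-value among the imprinted genes, carried 1 copy. The sequence of this window, at chr2:157559828-157560127 on the plus strand, follows, with the matching letters in capitals.
Nnat: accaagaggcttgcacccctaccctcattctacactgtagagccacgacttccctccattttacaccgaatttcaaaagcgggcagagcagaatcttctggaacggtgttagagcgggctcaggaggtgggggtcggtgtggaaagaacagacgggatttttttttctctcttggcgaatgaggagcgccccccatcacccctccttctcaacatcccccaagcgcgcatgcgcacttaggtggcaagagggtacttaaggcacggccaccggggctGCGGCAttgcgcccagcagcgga
The sites of the other 10 genes are given to show the letters around them, up to 10 bases on each side, on the strand of the gene and with the match in capitals.
Commd1 (chr11:22982260-22982285, minus strand): cagccgctggGCGGCAggccctcctt
Copg2 (chr6:30896895-30896920, minus strand): acgcccccgtGCGGCAgtgggcggag
Grb10 (chr11:12037381-12037406, minus strand): gtgcggggagGCGGCAggaagggaag
Igf2 (chr7:142661226-142661251, minus strand): cggtgtcccaGCGGCAgcacagattt
Meg3 (chr12:109540796-109540821, plus strand): caggggcactGCGGCAgatttttttt
Mest (chr6:30737800-30737823, plus strand): ccttgcccGCGGCAttaacacatg
Mest (chr6:30737973-30737998, plus strand): gaggggcgctGCGGCAggatgggcgg
Nap1l5 (chr6:58907084-58907109, minus strand): cgtcagcgttTGCCGCatcttcagac
Nap1l5 (chr6:58907135-58907160, minus strand): gccattcactTGCCGCgagccgcgaa
Plagl1 (chr10:13090732-13090757, plus strand): ggcgtgttgcGCGGCAaagcccacgg
Snrpn (chr7:60005186-60005211, minus strand): cccctgcattGCGGCAaaaatgtgcg
Zim1 (chr7:6696437-6696462, minus strand): aagtcatcccGCGGCAttccactccg
None of the 3 windows of Zfp57 itself held these letters. The window of its first start, at chr17:37000913-37001212 on the plus strand, is given because Zfp57 is the gene that changed.
Zfp57: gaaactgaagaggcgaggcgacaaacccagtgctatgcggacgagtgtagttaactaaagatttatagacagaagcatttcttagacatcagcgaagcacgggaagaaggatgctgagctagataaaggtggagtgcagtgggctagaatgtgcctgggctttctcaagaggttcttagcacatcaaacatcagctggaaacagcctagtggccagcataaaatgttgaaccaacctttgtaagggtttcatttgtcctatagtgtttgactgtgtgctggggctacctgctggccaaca

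The arrays resembled each other, with correlations across genes between 0.994 and 0.998. All 10 marker genes of granule cells, the main neurons of the dentate gyrus, lay above a reference for dim signal. This reference was the 95th percentile of 1203 olfactory, vomeronasal and trace amine receptor genes, 7.01 on average over the arrays. The array of 6 weeks replicate 1 stood apart, with a level of 13.77 for Ttr, a gene of the choroid plexus, where the next highest array had 10.15. On 8 weeks replicate 1 the percentile of the receptor genes was highest, at 7.18. The labelled sex was not borne out on any of the 10 arrays. Xist, which coats the inactive X, had at most 6.02 and lay under the dim reference on all of them, whereas Uty, Kdm5d and Eif2s3y, which are Y-linked, lay above it on all of them.

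Zfp57 fell with age and was the only one of the 33 measured genes that passed the trend test, where 0.82% of all genes passed. Zfp57 was chosen with this fall known, so its passing is not an independent result. It lies on chromosome 17 (37001163 to 37010729). Its level was 9.37 and 9.21 at 4 weeks, 8.97 and 8.75 at 6 weeks, 8.72 and 8.71 at 8 weeks, 8.44 and 8.43 at 10 weeks and 8.33 and 8.31 at 12 weeks. The arrays of successive ages did not overlap at any step. The mean was 8.32 ± 0.01 at 12 weeks, against 9.29 ± 0.11 at 4 weeks (SD, n = 2 each). The fitted linear change over the 8 weeks was −0.94 ± 0.09 (SE), a 1.92-fold fall, with an adjusted p of 0.00043 in limma over all genes. Fitted changes below are of this kind, on the log2 scale, with ± for the standard error. Among the 19752 genes this was the 9th lowest p-value. In the same test 0.673% of all genes fell and 0.147% rose, 133 and 29 genes. With quantile normalization, 132 fell and 61 rose.

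The fall of Zfp57 was steepest at the start. The step of the age means was −0.43 between 6 and 4 weeks and −0.11 between 12 and 10 weeks, with −0.15 and −0.28 at the steps between. The widest gap between replicates, at 6 weeks, was 0.22. The comparison of 12 with 4 weeks, which is not independent of the trend, gave −0.97 ± 0.09 (SE, adjusted p = 0.0026 in limma). Zfp57 was the only one of the 33 called there, against 0.516% of all genes in either direction and 0.39% lower. The moderated F-test over any ages also called Zfp57 (adjusted p = 0.016), together with 0.167% of all genes. That last call was lost without any 1 of the arrays of 4, 10 or 12 weeks, with adjusted p between 0.088 and 0.20. The trend was called in all 21 alternative fits, with changes between −1.09 and −0.85. The −1.09 is from the fit without the 12-week arrays, whose slope over 4 to 10 weeks was also scaled to 8 weeks. It was −0.94 ± 0.10 (SE) without 6 weeks replicate 1 and 8 weeks replicate 1, the arrays that stood apart.

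**Figure D1:**
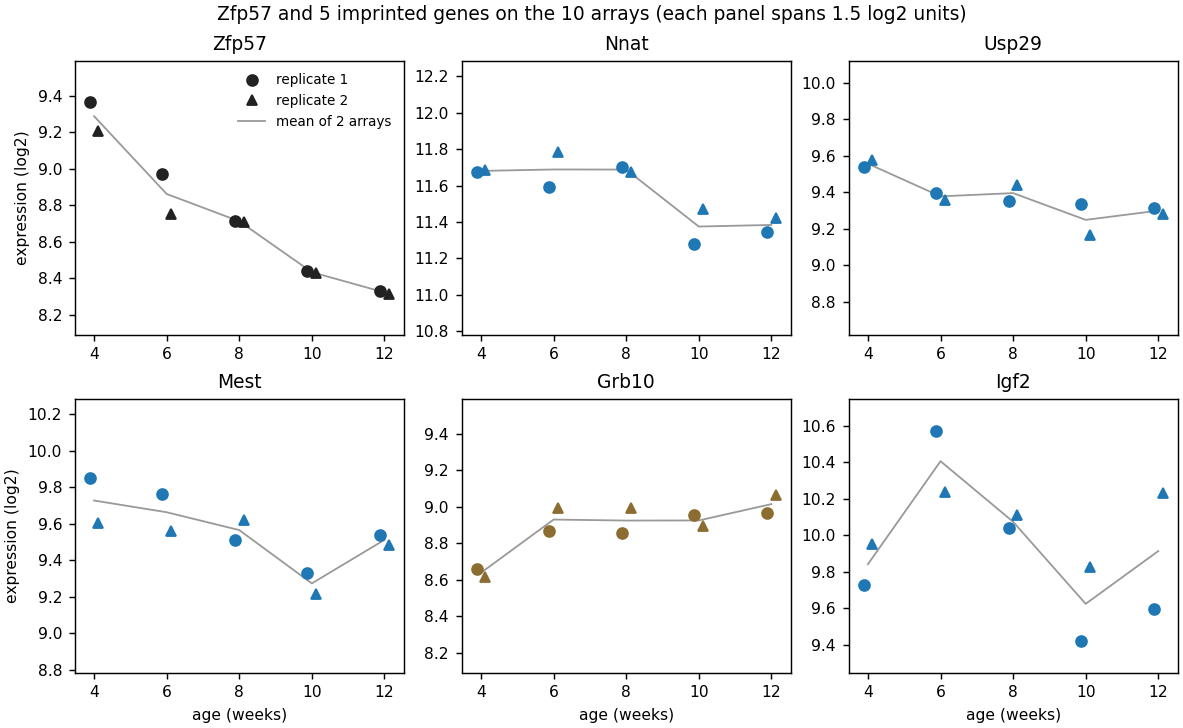
Expression (log2) of Zfp57 and 5 imprinted genes against age in weeks. Circles are replicate 1, triangles replicate 2 and the line joins the means of 2 arrays; the colours mark the keeper of imprints (black), paternally expressed genes (blue) and Grb10 (brown). The 12-week arrays of Zfp57 stand at 8.33 and 8.31, against 9.37 and 9.21 at 4 weeks, and Igf2 varies most between replicates.

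Markers of immature cells fell over the same ages. These lists were chosen with earlier results of these data known, so their counts of genes that fell are not an independent result. All 13 neuroblast and immature neuron genes were measured and lay above the dim reference. Of these, 7 fell in the test over all genes, in which 0.673% of all genes fell (Dpysl5, Igfbpl1, Cd24a, Eomes, Dcx, Dpysl3 and Sox4), and the median change of the 13 was −0.74. Dcx had a fitted change of −1.34 ± 0.13 and Cd24a of −1.83 ± 0.15, while Sox11 did not pass (−0.55 ± 0.14, adjusted p = 0.090 in limma). The mean level of the list was 9.69 and 9.70 on the 12-week arrays, against 10.46 and 10.52 on the 4-week arrays. Of the 13 measured cell cycle genes 6 fell (Ccna2, Rrm2, Mki67, Mcm7, Top2a and Tpx2), with a median of −0.42. Among these, Mki67 had a fitted change of −0.87 ± 0.12, Top2a of −0.74 ± 0.13 and Ccna2 of −0.87 ± 0.09. Of the 13, 11 lay above the dim reference, with Mcm3 and Bub1 below it. The 12-week means of Mki67 (6.97) and Top2a (6.86) also lay under it, so the size of their falls is uncertain. The granule cell list had a median of 0.06, and of its 10 genes Tdo2 fell (−0.44 ± 0.08), while Prox1 (−0.14 ± 0.07), C1ql2 (0.19 ± 0.06) and Calb1 (−0.05 ± 0.08) did not pass. In whole tissue, fewer cells of a type and less RNA per cell cannot be told apart, and the part of these lists in the fall of Zfp57 was not tested.

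The neighbour of Zfp57 fell with it. Mog, which encodes a surface glycoprotein of the outermost myelin layer, lies on the opposite strand and ends where Zfp57 ends, with 10 bases between the annotated genes. It has a probe set of its own. Mog stood at 10.03 and 10.00 at 4 weeks, 9.83 and 9.90 at 6 weeks, 9.66 and 9.50 at 8 weeks, 9.44 and 9.36 at 10 weeks and 9.26 and 9.35 at 12 weeks. Its change was −0.76 ± 0.07 (SE, adjusted p = 0.00038 in limma), and its 12-week arrays lay below its 4-week arrays. Of the 17 other measured genes within 150 kb of Zfp57, Mog was the only one called and 16 were not called. Among the 16, the means of Trim15, Trim10, Trim40, Trim31, 2410137M14Rik, Olfr90, Olfr92 and Olfr93 lay under the dim reference, where a fall is hard to see. H2-M5, the nearest measured gene on the other side, had a fitted change of −0.12 ± 0.11, but its mean of 7.03 lay at the dim reference. Gabbr1, beyond Mog, had a fitted change of −0.03 ± 0.05. Of 3 myelin genes on other chromosomes, picked with their falls known and not as a list, Mag on chromosome 7 had a fitted change of −0.72 ± 0.10, Cldn11 on chromosome 3 of −0.66 ± 0.08 and Cnp on chromosome 11 of −0.57 ± 0.09, each past the threshold over all genes. Other myelin genes were not tallied. Whether the probes of Zfp57 or Mog read RNA of the other gene was not tested.

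**Figure D2:**
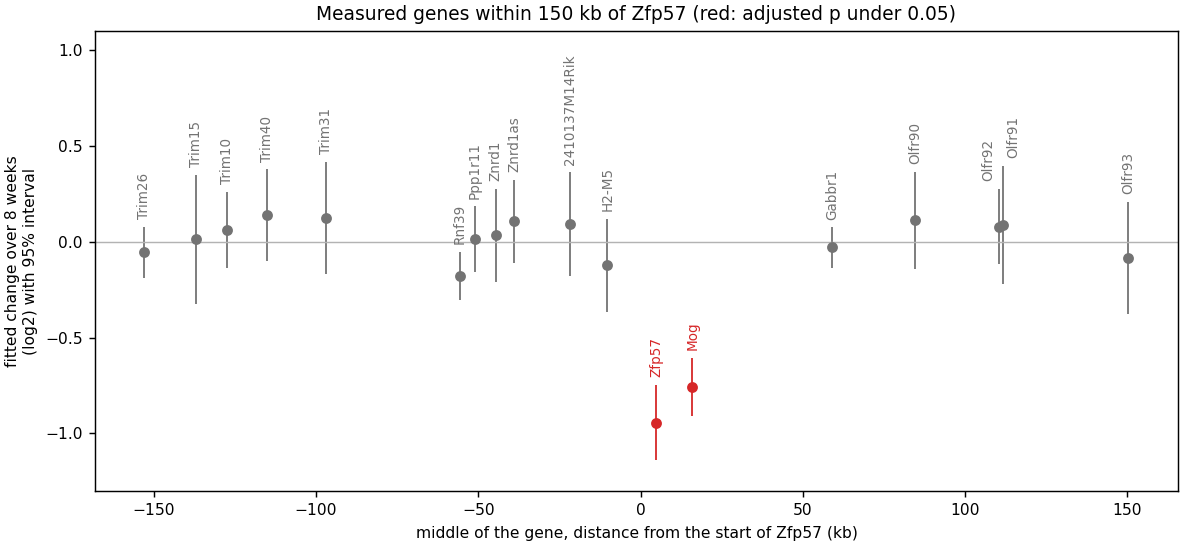
Fitted change over 8 weeks (log2, points, with 95% intervals as bars) of the 18 measured genes within 150 kb of Zfp57, against the distance of the middle of each gene from the start of Zfp57 in kb. Zfp57 at −0.94 and Mog at −0.76 passed the test and are drawn in red. The other 16 genes range between −0.18 for Rnf39 and 0.14 for Trim40, and several of them, Trim40 included, lay under the dim reference.

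The imprinted genes did not share this fall. None of the 32 measured passed in limma over all genes, in the trend, the F-test or the comparison of 12 with 4 weeks. At an unadjusted p under 0.05 the trend gave 3 lower and 1 higher, where 7.28% and 4.41% of all genes did so. The F-test over any ages gave 6 of the 32 at an unadjusted p under 0.05, against 1672 of all 19752 genes, a smaller share. These were Nnat, Usp29, Grb10, Mest, Peg10 and Igf2. The comparison of 12 with 4 weeks gave 4 of the 32, against 1891 of all genes, also a smaller share. Whether these shares differ was not tested. The median change of the 32 was −0.01, with 16 negative and 16 positive, and that of all genes was 0.00. The median size of change, regardless of sign, was 0.08 for the 32 genes and 0.07 for all genes. For 29 of the 32 the 95% interval of the change lay within 0.5 log2 units of 0, and for all 32 it excluded the −0.94 of Zfp57. The interval of Zfp57 itself, −1.14 to −0.75, overlapped that of Igf2, −0.82 to 0.31. Age means lower at every step were found for 1 of the 32 (2.23% of all genes) and means higher at every step for 1 (1.16% of all genes). These were Zim1 and Impact. The 12-week arrays lay below both 4-week arrays for 6 genes and above both for 10, where 22.2% and 21.6% of all genes did so.

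No gene of any parental class passed the test over all genes. The 18 measured paternally expressed genes had a median change of 0.01, with 8 negative and 10 positive, and ranged from −0.36 for Nnat to 0.15 for Peg10. The 7 measured maternally expressed genes had a median of −0.03, with 5 negative and 2 positive, and ranged from −0.19 for Zim1 to 0.01 for Igf2r. The 7 measured genes whose expressed copy varies had a median of 0.03 and ranged from −0.05 for Begain to 0.30 for Grb10. The 3 genes with negative changes at an unadjusted p under 0.05 (Nnat, Usp29 and Mest) are paternally expressed, as are 18 of the 32 measured. Whether the classes differ was not tested.

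**Figure D3:**
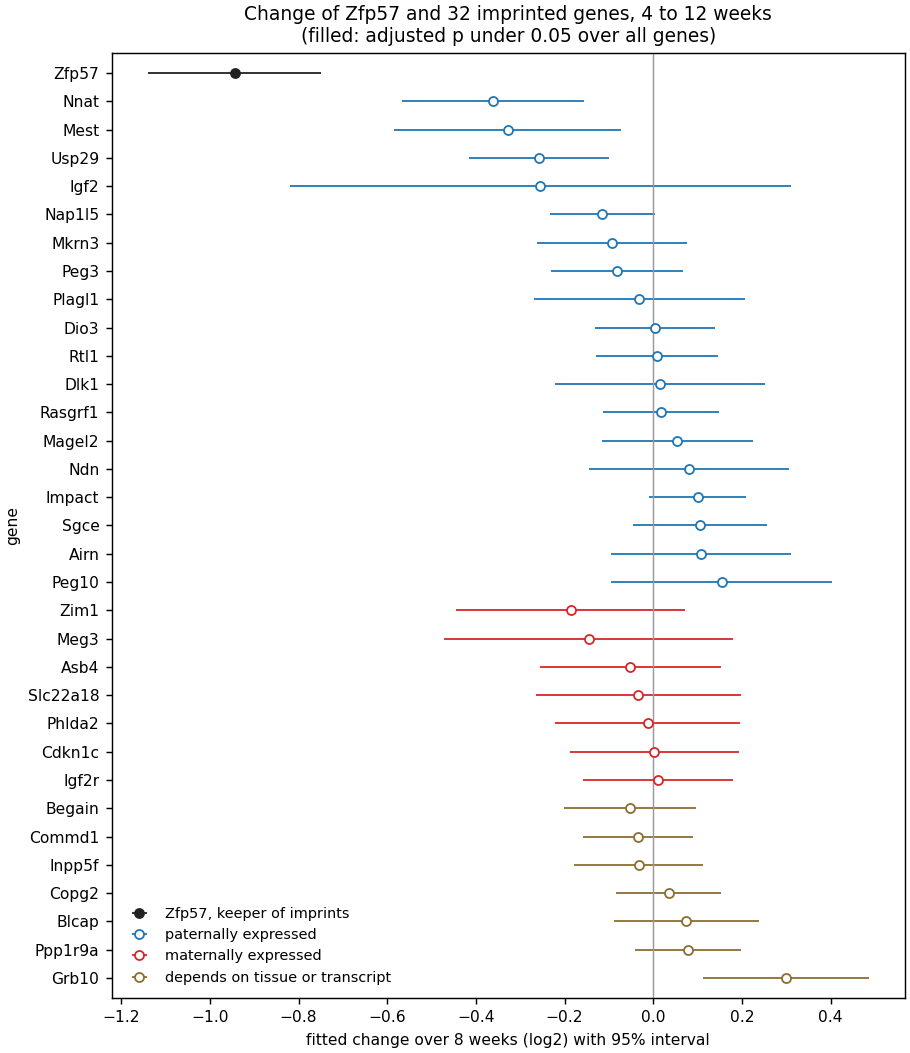
Fitted change over 8 weeks (log2, x axis) of Zfp57 and the 32 measured imprinted genes, grouped by the expressed parental copy, with 95% intervals as bars. The filled point, Zfp57 at −0.94, passed the test over all genes; the open points did not, and they range from −0.36 for Nnat to 0.30 for Grb10.

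Nnat encodes neuronatin, a small membrane protein of the endoplasmic reticulum that is abundant in developing neurons, and lies inside an intron of Blcap. Its level was 11.67 and 11.69 at 4 weeks, 11.59 and 11.79 at 6 weeks, 11.70 and 11.67 at 8 weeks, 11.28 and 11.47 at 10 weeks and 11.35 and 11.42 at 12 weeks. The 4 arrays of 10 and 12 weeks lay below the 6 younger ones. The change of −0.36 ± 0.09 (SE) had an adjusted p of 0.12 in limma, and it passed only with trended and robust variances (0.024), as did its F-test (0.045). Blcap, the host gene, had a fitted change of 0.07 ± 0.08.

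Mest, which encodes a protein of the alpha/beta hydrolase fold, stood at 9.85 and 9.60 at 4 weeks, 9.76 and 9.56 at 6 weeks, 9.51 and 9.62 at 8 weeks, 9.33 and 9.22 at 10 weeks and 9.54 and 9.48 at 12 weeks. The lowest values were those of 10 weeks, and the 12-week arrays lay between them and the 4-week arrays. The change of −0.33 ± 0.12 (SE) did not pass (adjusted p = 0.26 in limma). Copg2, a coat protein gene whose end overlaps that of Mest, had a fitted change of 0.03 ± 0.05.

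In the Peg3 cluster on chromosome 7, Usp29 and Peg3 are transcribed in opposite directions from starts 96 bases apart. Usp29, a ubiquitin-specific protease gene, stood at 9.54 and 9.57 at 4 weeks, 9.40 and 9.36 at 6 weeks, 9.35 and 9.44 at 8 weeks, 9.33 and 9.16 at 10 weeks and 9.31 and 9.28 at 12 weeks. The 4-week arrays were the highest, and the change of −0.26 ± 0.07 (SE) did not pass (adjusted p = 0.15 in limma). Peg3, a zinc finger gene that acts in growth and maternal behaviour, stood between 11.41 and 11.64 on all arrays, at 11.64 and 11.57 at 4 weeks, 11.60 and 11.59 at 6 weeks, 11.44 and 11.62 at 8 weeks, 11.54 and 11.41 at 10 weeks and 11.56 and 11.56 at 12 weeks. Its change was −0.08 ± 0.07. Zim1, the maternally expressed zinc finger gene beside Peg3, had a fitted change of −0.19 ± 0.12, with its lowest and highest values, 7.72 and 8.20, both at 8 weeks.

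Grb10 encodes an adaptor that dampens signalling of the insulin and IGF1 receptors. It had the largest positive change of the 32, 0.30 ± 0.09 (SE, adjusted p = 0.16 in limma). Its level was 8.66 and 8.62 at 4 weeks, 8.87 and 8.99 at 6 weeks, 8.85 and 8.99 at 8 weeks, 8.95 and 8.90 at 10 weeks and 8.96 and 9.06 at 12 weeks. Both 4-week arrays lay below the other 8, and the difference of 12 minus 4 weeks was 0.38 ± 0.08 (adjusted p = 0.098). That comparison passed without the dimmest 30% of genes (0.037) and with trended and robust variances (0.031).

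Igf2, the gene of the growth factor IGF2, is known to be strongly expressed by choroid plexus and meninges in the brain, where it escapes imprinting. It varied more between arrays than any other of the 33 genes, over 1.15 log2 units. Its level was 9.73 and 9.96 at 4 weeks, 10.57 and 10.24 at 6 weeks, 10.04 and 10.11 at 8 weeks, 9.42 and 9.83 at 10 weeks and 9.59 and 10.23 at 12 weeks. Both 6-week arrays lay above the other 8, and the 8-week arrays lay above those of 4 and 10 weeks, while the 12-week arrays overlapped with other ages. Replicates differed by up to 0.64, and the linear change of −0.26 ± 0.26 (SE) did not pass (adjusted p = 0.79 in limma). Without 6 weeks replicate 1 it was −0.13 ± 0.22.

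Genes of meningeal and perivascular fibroblasts were set beside Igf2. All 11 of the list were measured and lay above the dim reference, and 0 of them passed the trend in limma (0 at an unadjusted p under 0.05). The first in the list, Dcn, Lum and Col1a1, had a fitted change of −0.01 ± 0.35, −0.09 ± 0.12 and −0.09 ± 0.08. The mean level of the 11 was 8.75 and 8.84 at 4 weeks, 9.21 and 9.02 at 6 weeks, 9.08 and 9.00 at 8 weeks, 8.58 and 8.81 at 10 weeks and 8.81 and 9.14 at 12 weeks. Igf2 and this mean were both highest on 6 weeks replicate 1 and both lowest on 10 weeks replicate 1. Single genes differed in this. Of the 11, 6 were highest on that 6-week array and 7 lowest on that 10-week array, and 5 did both (Aldh1a2, Dcn, Fmod, Islr and Slc22a6). Col1a1, Col1a2 and Col3a1 were highest on 8 weeks replicate 1, and Pdgfra on 4 weeks replicate 2. With this mean as a covariate, a fit chosen after its values were seen, the change of Igf2 was −0.21 ± 0.09 (adjusted p = 0.36), and its standard error was 0.26 without it. The choroid plexus list, with 8 of 11 measured genes above the dim reference and Clic6, Kcne2 and Cldn2 below it, averaged 8.75 on 6 weeks replicate 1 and 7.33 to 7.58 on the other arrays. None of its genes passed the trend in limma (1 at an unadjusted p under 0.05), with Ttr at −0.63 ± 1.04, Folr1 at −0.01 ± 0.26 and Kl at 0.31 ± 0.19. With its mean as a covariate the change of Igf2 was −0.15 ± 0.22. The endothelial list averaged between 8.54 and 9.01, with 0 of 7 genes past the trend in limma. Of the 7, Flt1 (0.40 ± 0.12) and Pecam1 (0.29 ± 0.11) were higher at an unadjusted p under 0.05, where 4.41% of all genes were. Cldn5 had a fitted change of 0.24 ± 0.13 and Kdr of −0.19 ± 0.13. The part of these cells in the level of Igf2 was not tested, and covariates taken from the same arrays cannot test it.

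**Figure D4:**
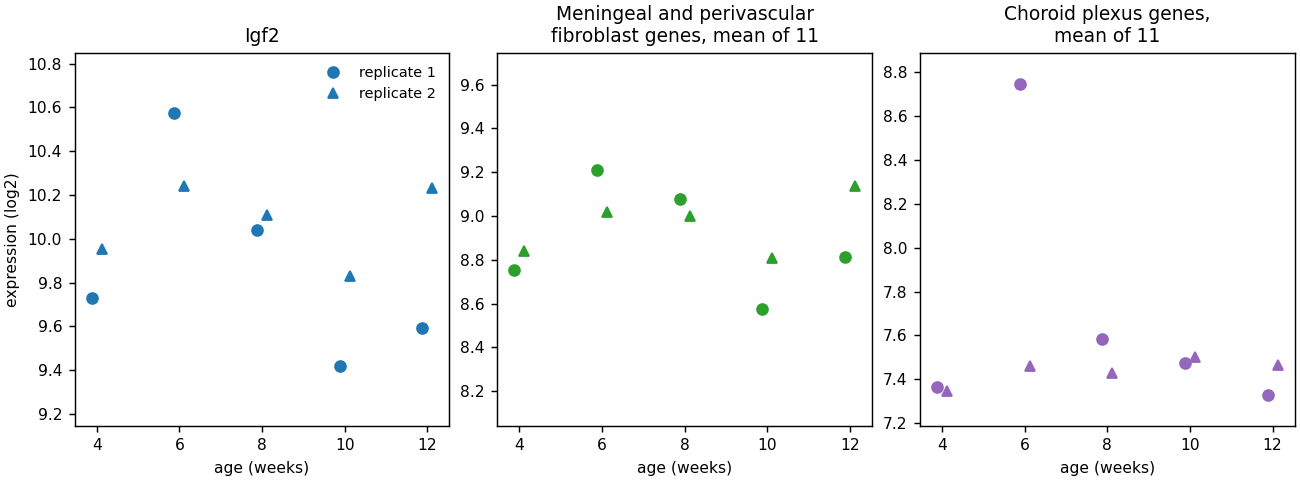
Expression (log2) against age in weeks of Igf2, of the mean of 11 meningeal and perivascular fibroblast genes and of the mean of 11 choroid plexus genes; circles are replicate 1 and triangles replicate 2, and each panel spans the same number of log2 units. Igf2 and the fibroblast mean are highest on 6 weeks replicate 1 (10.57 and 9.21) and lowest on 10 weeks replicate 1 (9.42 and 8.58), while the choroid plexus mean stands out on 6 weeks replicate 1 alone (8.75).

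No change was called for the genes around IGF2 signalling. Igf2r, whose product binds IGF2 and carries it to lysosomes, had a fitted change of 0.01 ± 0.08, with a 95% interval from −0.16 to 0.18. Airn, the non-coding RNA that silences the paternal copy of Igf2r and overlaps it, had a fitted change of 0.11 ± 0.09. Its mean of 7.01 lay at the dim reference, and it was above it on 6 of 10 arrays. Plagl1, a zinc finger transcription factor gene known to regulate other imprinted genes, had a fitted change of −0.03 ± 0.11.

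In the cluster from Dlk1 to Dio3 on chromosome 12, all 5 measured genes had changes within 0.15 of 0. Dlk1, a transmembrane protein gene related to Notch ligands, stood at 8.48 and 8.38 at 4 weeks, 8.44 and 8.50 at 6 weeks, 8.80 and 8.31 at 8 weeks, 8.45 and 8.51 at 10 weeks and 8.48 and 8.41 at 12 weeks. Its highest and lowest values were the replicates of 8 weeks, and its change was 0.01 ± 0.11. Meg3, the maternally expressed non-coding RNA of the cluster, stood at 10.52 and 10.36 at 4 weeks, 10.54 and 10.79 at 6 weeks, 10.43 and 10.38 at 8 weeks, 10.16 and 10.70 at 10 weeks and 10.24 and 10.50 at 12 weeks. Replicates differed by up to 0.54, and the change was −0.15 ± 0.15. Rtl1, a gene derived from a retrotransposon, had a fitted change of 0.01 ± 0.06 and Begain, a gene of a postsynaptic protein, of −0.05 ± 0.07. Dio3, which encodes the deiodinase that inactivates thyroid hormone, was dim (mean 6.93) and had a fitted change of 0.00 ± 0.06.

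The Kcnq1ot1 cluster holds genes that restrain growth. Cdkn1c encodes the cyclin-dependent kinase inhibitor p57, which is known to hold hippocampal stem cells in quiescence. It stood at 7.91 and 7.87 at 4 weeks, 7.89 and 7.84 at 6 weeks, 8.18 and 7.88 at 8 weeks, 7.93 and 7.91 at 10 weeks and 7.84 and 7.89 at 12 weeks. Apart from 8 weeks replicate 1, the other 9 arrays lay between 7.84 and 7.93. The change was 0.00 ± 0.09, with a 95% interval from −0.19 to 0.19. Phlda2, a gene that limits growth of the placenta, had a fitted change of −0.01 ± 0.10 and the transporter gene Slc22a18 of −0.03 ± 0.11. All 3 had their highest value on 8 weeks replicate 1.

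Genes of the Snrpn and Ube3a cluster, a region lost in Prader-Willi and Angelman syndromes in humans, showed no called change. Ndn, a MAGE family gene of neuronal survival, had a fitted change of 0.08 ± 0.10 and had its highest value, 12.21, on 12 weeks replicate 1. Magel2, of the same family, had a fitted change of 0.05 ± 0.08 and the ring finger gene Mkrn3, which is dim (mean 6.57), of −0.09 ± 0.08. In the cluster of Peg10 and Sgce, Peg10, a gene derived from a retrotransposon, had a fitted change of 0.15 ± 0.11. Its highest values, 10.66 and 10.59, were both at 12 weeks, and without the 12-week arrays the fitted change was −0.11. Sgce, the epsilon-sarcoglycan gene, had a fitted change of 0.11 ± 0.07 and Ppp1r9a, which encodes the actin-binding neurabin of dendritic spines, of 0.08 ± 0.05. Asb4, a maternally expressed gene of the cluster, was under the dim reference on every array.

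The remaining imprinted genes had small changes. Rasgrf1, a Ras activator of neurons that responds to calcium, stood between 12.30 and 12.47 and had a fitted change of 0.02 ± 0.06. Impact, an inhibitor of the GCN2 stress kinase, had a fitted change of 0.10 ± 0.05 (adjusted p = 0.48 in limma), with means higher at every step than the one before. Nap1l5, related to nucleosome assembly proteins, had a fitted change of −0.12 ± 0.05 (adjusted p = 0.45). The phosphoinositide phosphatase gene Inpp5f had a fitted change of −0.03 ± 0.07 and Commd1, a gene of copper handling, of −0.03 ± 0.06.

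The other keepers of imprints did not follow Zfp57 past the threshold. Of the 20 genes in this list 19 were measured, and 14 of these lay above the dim reference. Uhrf1, Dppa3, Dnmt3l, Ctcfl and Hells lay under it, where a change is hard to see. Of the 19, 0 passed the trend in limma. At an unadjusted p under 0.05, 2 were lower and 1 higher, where 7.28% and 4.41% of all genes were. The median change was −0.01, and that of all genes was 0.00. The 2 lower ones encode DNA methyltransferases, Dnmt3a at −0.33 ± 0.09 (adjusted p = 0.17 in limma) and Dnmt1, which copies methylation after replication, at −0.19 ± 0.07 (adjusted p = 0.32). The higher one, Dnmt3l at 0.23 ± 0.09, lay under the dim reference in its mean. Trim28, which ZFP57 recruits to control regions, had a fitted change of −0.11 ± 0.06. Zfp445, the other KRAB zinc finger protein known to keep imprints, had a fitted change of 0.00 ± 0.08, and Setdb1, the histone methyltransferase of the complex, of −0.05 ± 0.06.

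A further 44 imprinted genes outside the 40 were listed. Of these, 36 were measured, and 29 of the 36 lay above the dim reference. Slc38a4, Tfpi2, Calcr, Ascl2, Tspan32, Ins2 and Gpr1 lay under it. Of the 36, 0 passed the trend in limma. At an unadjusted p under 0.05, 5 were lower and 4 higher, where 7.28% and 4.41% of all genes were. The median change was −0.03, and that of all genes was 0.00. The first 3 measured in the list, all paternally expressed, were Mcts2 at −0.25 ± 0.09, Peg12 at 0.04 ± 0.13 and Zdbf2 at −0.30 ± 0.16. Dcn, a matrix proteoglycan gene, stands both in this list and in that of meningeal and perivascular fibroblasts.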

How the data were processed

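Log2 expression values per probe set were taken as the authors deposited them. Array medians lay between 8.27 and 8.31, and the log base, background correction, summarization and normalization are not given in the sources used here. The build was mm10, per the submitters' processing notes. Per the labels' protocols RNA was labelled with a whole-transcript terminal labelling kit. The table holds 25254 probe sets, of which 21496 name 1 gene, and those with several or none were left out. For the 938 genes with several probe sets, the one of highest mean was used.

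Tests used limma 3.58.1 in R 4.3.3, two-sided, with default empirical Bayes settings and Benjamini-Hochberg adjustment over 19752 genes at a threshold of 0.05. The trend was a straight line over weeks of age, with 8 residual degrees of freedom, scaled to 8 weeks. This scale was kept for the fit without the 12-week arrays. The F-test and the comparison of 12 with 4 weeks took age as a factor, with 5. The trend was tested on simulated data with known changes. The number of arrays limits the precision. Symbols and coordinates come from the RefSeq table of GRCm38.p6. The members and lists were chosen with earlier results of these data known, among them the fall of Zfp57. Values on every array are given for genes with an unadjusted p under 0.05 in the trend and for Igf2, Dlk1, Meg3, Peg3 and Cdkn1c. The lists are the granule cell, neuroblast, cell cycle, choroid plexus, meningeal, endothelial, imprint keeper and further imprinted genes. Alternatives covered the replicate block, scaling, filters, probe sets, variances, age scale, covariates and left-out arrays.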

Additional observations from a re-analysis of the deposited data

How the results depend on the processing

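The fall of Zfp57 passed in all 21 alternative fits of the trend (−0.99 to −0.85 with 1 array left out) and in all 17 of the comparison of 12 with 4 weeks (highest adjusted p in limma 0.047, range −1.05 to −0.89 with 1 array left out), but the F-test lost it without any 1 of the arrays of 4, 10 or 12 weeks. Counts over all genes moved more. The trend called 162 genes, against 363 with trended and robust variances, 337 without the dimmest 30% of genes and 51 without the 12-week arrays. The F-test called 33, against 158 with trended and robust variances, 69 without the dimmest 30% and 13 with the replicate block. The comparison of 12 with 4 weeks called 102, against 304 with trended and robust variances, 210 without the dimmest 30% and 66 with the replicate block. With 1 array left out, the trend called between 35 and 279 genes, the F-test between 5 and 50 and the comparison of 12 with 4 weeks between 13 and 188. Of the 33 genes, the F-test then called 0 or 1 and the other tests 1. Of the 33 genes, 2 passed with trended and robust variances in each of the 3 tests, with Nnat added in the trend and F-test and Grb10 in the comparison of 12 with 4 weeks, which also gave 2 without the dimmest 30%. Whether replicate numbers pair the arrays is not known, and deviations of same-numbered arrays, which correlated between −0.34 and 0.16, do not settle it. The replicate block left the calls among the 33 as they were and Zfp57 at an adjusted p of 0.0010 in limma.

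In 13 imprinted genes the change turned sign under some alternative, and none of them was called there. Quantile normalization gave −0.020 for Rtl1, −0.040 for Dio3, 0.0066 for Plagl1, −0.0043 for Cdkn1c and 0.0060 for Inpp5f, and median centring gave 0.00085 for Phlda2. Without 6 weeks replicate 1 and 8 weeks replicate 1, Rtl1 was at −0.0036, Dio3 at −0.022 and Plagl1 at 0.024. On log2 of age, Rtl1 was at −0.0033, Dio3 at −0.011 and Phlda2 at 0.0088. With the choroid plexus covariate, Rtl1 was at −0.0023, Dio3 at −0.017 and Plagl1 at 0.011. Without the 12-week arrays, Rtl1 was at −0.051, Dio3 at −0.043, Ndn at −0.14, Peg10 at −0.11, Phlda2 at 0.12, Slc22a18 at 0.11, Igf2r at −0.12 and Airn at −0.086. With 1 array left out, the changes ran between −0.034 and 0.056 for Dlk1, −0.012 and 0.072 for Rtl1, −0.022 and 0.048 for Dio3, −0.13 and 0.025 for Plagl1, and −0.064 and 0.12 for Ndn. They ran between −0.020 and 0.046 for Cdkn1c, −0.062 and 0.081 for Phlda2, −0.083 and 0.066 for Slc22a18, −0.043 and 0.039 for Igf2r, and −0.067 and 0.0061 for Commd1. The causes were not tested. The covariate of meningeal genes was added after seeing the data.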

Other observations

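Probe sets that name a member together with other genes cannot be assigned to it. The probe set of Snrpn and Snurf, which come from 1 transcript, lay between 12.58 and 12.75 on the 10 arrays, with 12.58 and 12.58 at 12 weeks and 12.75 and 12.65 at 4 weeks. That of Gnas and Gnasas1 lay between 11.59 and 11.69, and that of Ube3a and 3 other genes between 10.14 and 10.38. The probe set of Rian and AF357355 lay between 7.44 and 8.19, and that of Mirg and Mir410 between 6.80 and 7.59.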
